A study of Mus musculus with 8 samples.

Results

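The VEGF and angiopoietin system was examined in cells described as liver ECs through 10 genes chosen by symbol: the ligands Vegfa, Vegfb and Vegfc, their receptors Kdr, Flt1 and Flt4, the ligands Angpt1 and Angpt2, and the receptors Tek and Tie1. Each symbol matched 1 of the 22520 protein-coding genes measured by mRNA-seq. There were 4 WT libraries (LRP1 f/f; Cdh5-CreER-/-) and 4 LRP1 eKO libraries from littermates (LRP1 f/f; Cdh5-CreER+/-), all of strain C57BL/6 and postnatal day 14. Both groups carry the floxed Lrp1 alleles, so they differ by the CreER transgene, driven by the Cdh5 promoter, as well as by the loss of Lrp1. The labels call the cells liver microvesicular cells, and the methods describe selection of primary ECs on beads with a PECAM-1 antibody.

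VEGF ligands are secreted growth factors that act on receptor tyrosine kinases of endothelial cells. VEGF-A is the main angiogenic ligand and signals chiefly through Kdr (VEGFR2), whereas Flt1 (VEGFR1) binds VEGF-A and VEGF-B tightly, signals weakly and can act as a decoy, also in a soluble form. VEGF-C acts on Flt4 (VEGFR3) and is best known for lymphatic growth. Angpt1 activates Tek (Tie2) and stabilizes vessels, Angpt2 is stored by endothelial cells and can oppose Angpt1, and Tie1 is a partner of Tek. In the liver, VEGF-A from neighboring cells keeps the sinusoidal endothelium fenestrated.

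The 250 bases before the annotated start are shown for 3 members that were higher in LRP1 eKO libraries (Vegfa, Vegfb and Flt1) and for Kdr, a receptor that did not pass the test. Sequences are from RefSeq on GRCm38.p6, in which 8 of the 10 members were matched. Capitals mark matches on either strand to 4 motifs, namely GGGCGG, the GC box bound by Sp1-type factors, CCGGAA, a core of ETS factors, ACGTG, found in hypoxia response elements, and TGTTTAC, bound by forkhead factors. Each line runs 5′ to 3′ on the strand of the gene.
Vegfa, chr17:46032378-46032627, minus strand: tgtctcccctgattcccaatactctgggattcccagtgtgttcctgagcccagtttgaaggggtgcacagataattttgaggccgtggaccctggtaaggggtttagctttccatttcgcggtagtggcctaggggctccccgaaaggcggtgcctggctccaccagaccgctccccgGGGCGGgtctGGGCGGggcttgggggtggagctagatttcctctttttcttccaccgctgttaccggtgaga
Vegfb, chr19:6987652-6987901, minus strand: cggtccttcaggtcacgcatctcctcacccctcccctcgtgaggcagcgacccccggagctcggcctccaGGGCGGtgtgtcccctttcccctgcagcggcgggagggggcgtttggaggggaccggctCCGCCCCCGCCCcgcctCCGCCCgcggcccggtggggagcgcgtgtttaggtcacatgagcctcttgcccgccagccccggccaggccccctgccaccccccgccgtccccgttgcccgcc
Flt1, chr5:147726012-147726261, minus strand: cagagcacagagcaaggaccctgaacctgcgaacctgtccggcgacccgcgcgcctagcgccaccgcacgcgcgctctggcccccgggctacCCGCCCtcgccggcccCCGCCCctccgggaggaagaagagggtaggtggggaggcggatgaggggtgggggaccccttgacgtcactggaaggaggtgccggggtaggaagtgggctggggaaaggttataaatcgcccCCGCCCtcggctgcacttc
Kdr, chr5:75978456-75978705, minus strand: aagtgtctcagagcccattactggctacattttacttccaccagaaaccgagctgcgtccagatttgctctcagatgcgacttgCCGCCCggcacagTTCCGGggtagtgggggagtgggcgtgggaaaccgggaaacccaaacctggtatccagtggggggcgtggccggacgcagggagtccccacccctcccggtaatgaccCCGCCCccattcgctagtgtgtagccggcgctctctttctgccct
The GC box was found 2 times before Vegfa, 4 times before Vegfb, 3 times before Flt1 and 2 times before Kdr. Of the members not shown, Flt4 had 3 and Vegfc had 2, while Tek and Tie1 had 0. At least 1 GC box was present in 32.7% of 32851 promoter windows of this length. Kdr also had 1 match to CCGGAA, which 12.0% of windows hold. No match to ACGTG (16.6% of windows) or TGTTTAC (3.17%) was found in the windows shown. A second annotated start of Vegfa had 1 ACGTG before it, in a window that lies inside the gene (chr17:46025164-46025413). These matches describe letters and not binding.

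Signals are quantile-normalized values, whose unit before that step is not stated and whose sequencing depth is unknown. The median signal of genes above 0 was 11.4 to 13.1 across libraries for transcripts under 1000 bases and 3.76 to 4.55 for those over 4000 bases, so it did not rise with length. Values below are listed in the order of replicates 1 to 4 and means are ± SD over the 4 libraries of a group. Lrp1, the deleted gene (chr10:127538161-127621148, GRCm38, as for all gene positions here), measured 61.6, 59.0, 56.2 and 85.1 in WT against 6.01, 2.16, 5.15 and 4.32 in LRP1 eKO, with all LRP1 eKO libraries below all WT libraries.

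The label of the cells was checked against defining genes, several of which were low. Cdh5 and Pecam1, junction proteins of endothelial cells, averaged 1.86 ± 0.430 and 2.09 ± 0.416 in WT, then 3.70 ± 1.34 and 3.02 ± 0.911 in LRP1 eKO. The sinusoidal genes Clec4g and Dnase1l3 averaged 0.321 and 0.0317 in WT. Other markers of these lists were higher, with WT means of 15.0 for Esam, 12.4 for Eng, 9.17 for Egfl7 and 29.6 for Gata4. On the same scale Col1a2, a fibroblast collagen, averaged 833 and Acta2, the smooth muscle actin, 811. These values do not bear out a preparation made up mainly of ECs. Which cells gave the signal of a member was not tested. Summed over 10 pan-endothelial genes, the signal was 46.4 to 47.8 in WT and 78.6, 53.7, 72.0 and 62.0 in LRP1 eKO. Summed over 13 macrophage and Kupffer cell genes it was 113 to 222 in WT and 736, 52.8, 672 and 394 in LRP1 eKO. LRP1 eKO replicate 2 was thus the lowest of its group for both sums. In bulk libraries, fewer cells of a type and less RNA per cell cannot be told apart.

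Vegfa, Flt1, Flt4 and Vegfb were higher in LRP1 eKO libraries, while Vegfc, Kdr, Angpt2 and Tie1 did not pass the test. Values were compared as log2(signal + 1) with limma over 11391 genes that reached 1 in no fewer than 4 libraries, with p-values adjusted over them by Benjamini-Hochberg. Of the 8 members among them, 4 were higher and 0 lower at an adjusted p under 0.05 by limma, and 1 (Vegfc) was lower at an unadjusted p under 0.05. The same rule called 19.0% of all genes tested higher and 22.2% lower (41.2% in either direction). Past 2-fold as well, the threshold of the study, stood 0 of the 8 members by limma (0 also with an unadjusted p), against 0.869% of all genes higher and 0.790% lower (1.66% in all). The groups did not overlap for 3 of the 8 members, all higher, beside 20.0% of all genes higher and 22.5% lower (42.6% in all). Angpt1 and Tek, below 1 in every library, were fitted without the filter, where 18.7% of 22520 genes were called. Fold changes on this scale understate the change of genes with low signals. A value in parentheses just before an adjusted p, where not named otherwise, is a log2 fold change.

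**Figure D1:**
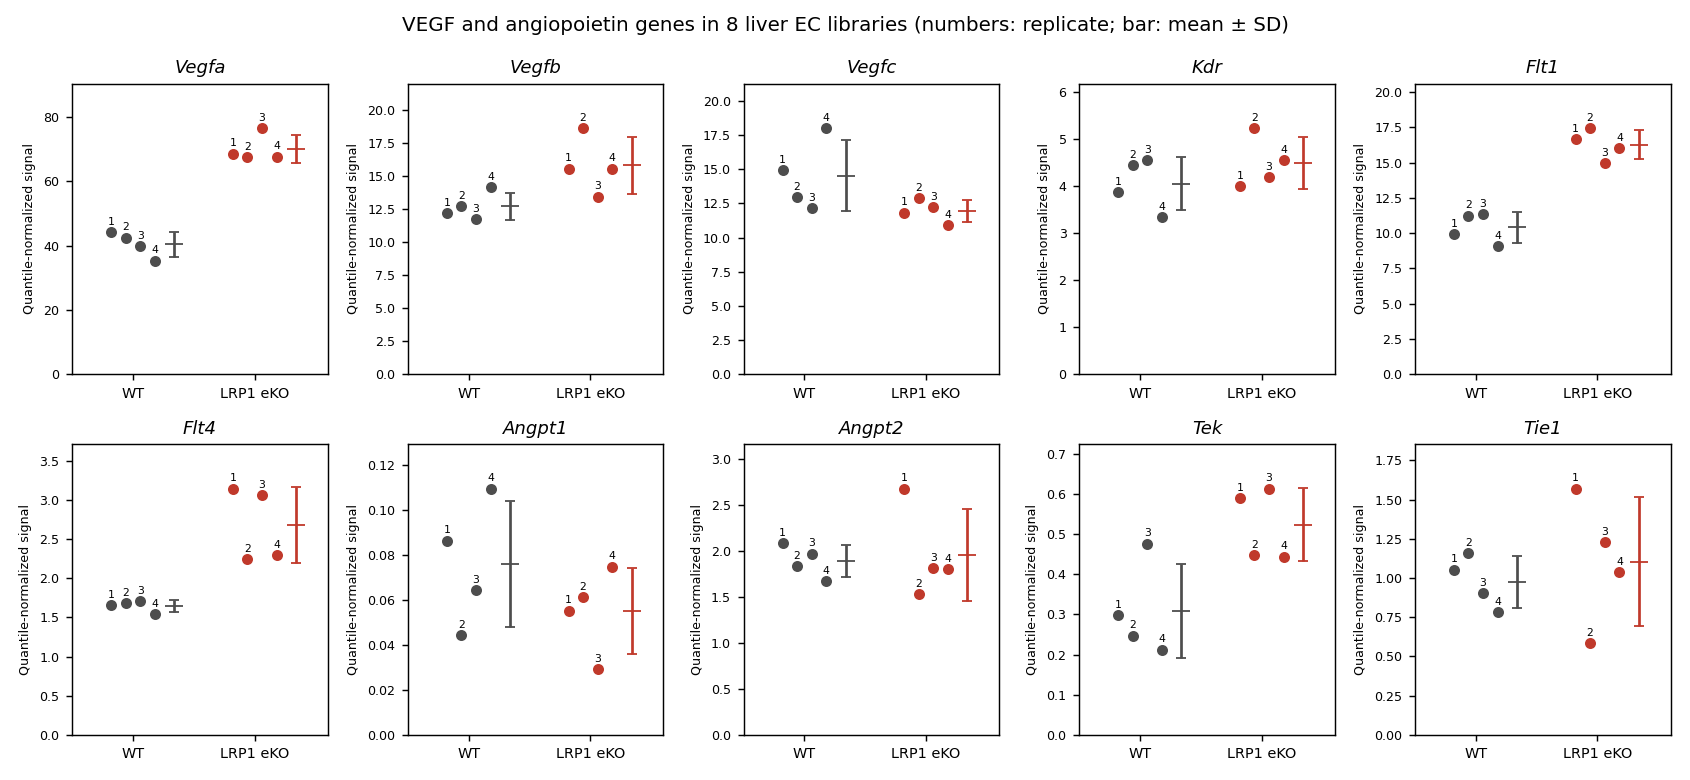
Quantile-normalized signal (y axis, linear from 0, own scale for each gene) of the 10 genes in 4 WT (grey) and 4 LRP1 eKO (red) libraries, with the replicate number beside each point and the mean ± SD of each group. The groups of Vegfa, Flt1 and Flt4 do not overlap, and those of the other 7 genes do.

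Among the VEGF ligands, Vegfa (chr17:46016993-46032369) has 8 annotated coding transcripts, which the table does not separate. WT libraries measured 44.2, 42.5, 39.8 and 35.3, and LRP1 eKO libraries measured 68.6, 67.5, 76.6 and 67.6. Every LRP1 eKO library was above every WT library. The mean went from 40.4 ± 3.86 to 70.1 ± 4.37, 1.73-fold, and the log2 fold change was 0.78 (95% interval 0.62 to 0.94, adjusted p = 3.5e-05, limma). The exact permutation test, two-sided, gave p = 0.029, which is the minimum for 4 against 4. Under 21 alternatives of the processing the log2 fold change was between 0.70 and 0.82, and the call was kept in the 20 of them that had a test.

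Vegfb (chr19:6982473-6987651), a ligand of Flt1, measured 12.2, 12.7, 11.7 and 14.1 in WT against 15.5, 18.6, 13.4 and 15.6 in LRP1 eKO. The groups overlapped, since WT replicate 4 was above LRP1 eKO replicate 3. Its log2 fold change was 0.29 (95% interval 0.08 to 0.49, adjusted p = 0.030, limma; exact permutation p = 0.057). The call was lost in 7 of the 20 alternatives with a test: without any 1 of WT replicates 1, 2 and 3 or LRP1 eKO replicates 1, 2 and 4, where the adjusted p from limma lay between 0.057 and 0.077, and without the filter, where it was 0.099.

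Vegfc (chr8:54077606-54187096) measured 14.9, 12.95, 12.2 and 18.03 in WT against 11.8, 12.9, 12.2 and 10.9 in LRP1 eKO. WT replicate 4 was the highest and the groups overlapped. Its log2 fold change was -0.25 (95% interval -0.49 to -0.01, adjusted p = 0.088, limma; exact permutation p = 0.086). It was -0.15 without WT replicate 4 (adjusted p = 0.15, limma), and -0.32 with a call without WT replicate 3 (adjusted p = 0.039, limma). The signal of Vegfa divided by that of Vegfc, a ratio chosen after the values were seen and not tested, was 2.96, 3.28, 3.26 and 1.96 in WT. In LRP1 eKO it was 5.80, 5.24, 6.28 and 6.201, without overlap.

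Of the receptors, Flt1 (chr5:147561604-147726011) has 2 annotated coding transcripts, and membrane-bound and soluble forms share 1 value in the table. WT libraries measured 9.95, 11.3, 11.4 and 9.06, and LRP1 eKO libraries measured 16.7, 17.5, 15.0 and 16.0. The groups did not overlap, and LRP1 eKO replicate 2, with the lowest macrophage and pan-endothelial sums of its group, was the highest. The mean went from 10.4 ± 1.10 to 16.3 ± 1.05, 1.57-fold, and the log2 fold change was 0.60 (95% interval 0.43 to 0.78, adjusted p = 2.8e-04, limma; exact permutation p = 0.029). It lay between 0.47 and 0.65 under 21 alternatives and was called in the 20 that had a test.

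Flt4 (chr11:49609263-49652739) measured 1.66, 1.68, 1.71 and 1.54 in WT against 3.14, 2.24, 3.06 and 2.29 in LRP1 eKO. The groups did not overlap, and LRP1 eKO replicates 1 and 3, with the highest pan-endothelial and macrophage sums, were highest here too. The mean went from 1.65 ± 0.0735 to 2.68 ± 0.484, 1.63-fold, and the log2 fold change was 0.47 (95% interval 0.26 to 0.67, adjusted p = 0.0032, limma; exact permutation p = 0.029). With the pan-endothelial genes other than Cdh5 and Ptprb as a covariate it was 0.23 and the call was lost (adjusted p = 0.11, limma). With the macrophage genes as a covariate it was 0.36 (adjusted p = 0.0077, limma). The covariate was a mean of log2 signals, not the sum given above. It holds genes that differed by genotype in both directions, such as Eng (mean 12.4 in WT, 24.3 in LRP1 eKO) and Cldn5 (1.08 and 0.673). With 8 libraries, a fit with this covariate cannot divide genotype from endothelial content. Of the lymphatic markers, Pdpn, which fibroblasts also make, was lower (-0.30, adjusted p = 4.8e-04, limma), and Prox1, the defining factor, stayed under 0.5 in all libraries.

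Kdr (chr5:75932827-75978458), the main signaling receptor of VEGF-A, measured 3.86, 4.45, 4.55 and 3.34 in WT against 3.99, 5.23, 4.19 and 4.54 in LRP1 eKO. The groups overlapped. Its log2 fold change was 0.12 (95% interval -0.10 to 0.34, adjusted p = 0.33, limma; exact permutation p = 0.34). The ratio of Flt1 to Kdr was 2.57, 2.53, 2.50 and 2.71 in WT and 4.17, 3.34, 3.58 and 3.53 in LRP1 eKO. This ratio, also chosen after the values were seen and not tested, was higher in every LRP1 eKO library than in any WT library.

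**Figure D2:**
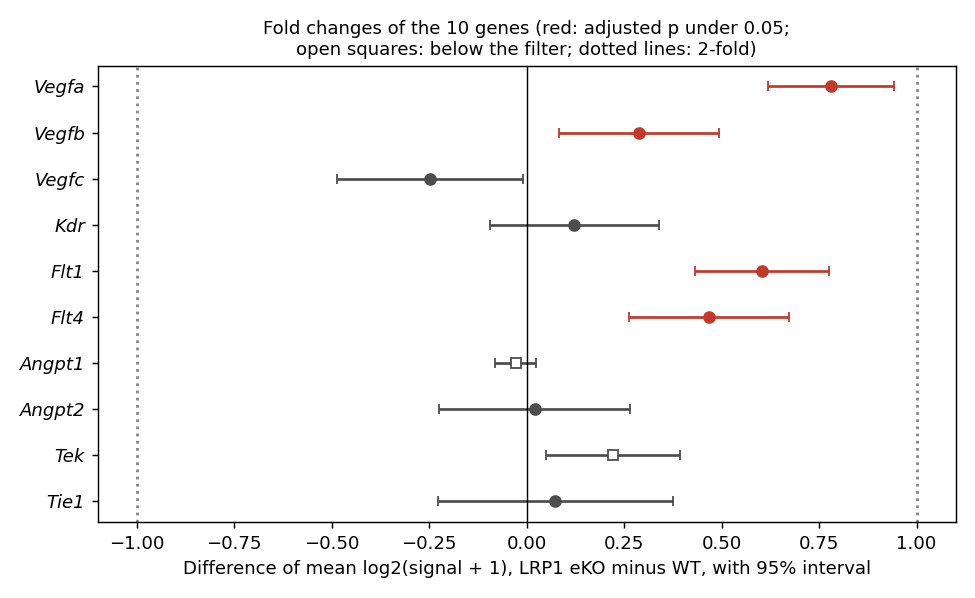
Difference of mean log2(signal + 1), LRP1 eKO minus WT (x axis, log2 scale), for each of the 10 genes with its 95% interval from limma. Vegfa, Flt1, Flt4 and Vegfb passed an adjusted p under 0.05, and the largest difference is that of Vegfa at 0.78.

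Among the angiopoietins, Angpt1 (chr15:42424723-42676977), supplied by mesenchymal cells, was barely detected, at 0.0862, 0.0443, 0.0642 and 0.109 in WT against 0.0551, 0.0611, 0.0293 and 0.0746 in LRP1 eKO. No difference was detectable at this level (-0.03, adjusted p = 0.49, limma, fitted without the filter). Angpt2 (chr8:18690263-18741562) measured 2.08, 1.84, 1.97 and 1.67 in WT against 2.68, 1.54, 1.82 and 1.80 in LRP1 eKO. LRP1 eKO replicates 1 and 2 were the highest and the lowest of all 8 libraries. Its log2 fold change was 0.02 (95% interval -0.22 to 0.27, adjusted p = 0.89, limma; exact permutation p = 0.91), with the opposite sign without WT replicate 4 (-0.02) or LRP1 eKO replicate 1 (-0.09).

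The Tie receptors were low. Tek (chr4:94739289-94874976) measured 0.298, 0.247, 0.477 and 0.212 in WT against 0.591, 0.447, 0.613 and 0.444 in LRP1 eKO. WT replicate 3 reached into the range of the LRP1 eKO libraries, and the other 3 WT libraries were below it. Its log2 fold change, fitted without the filter, was 0.22 (95% interval 0.05 to 0.39, adjusted p = 0.082, limma; exact permutation p = 0.086). Without WT replicate 3 it was 0.28 and called (adjusted p = 0.023, limma). The ratio of mean signals was 1.70.

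Tie1 (chr4:118471191-118490061), expressed mainly by endothelial cells, measured 1.05, 1.16, 0.904 and 0.784 in WT against 1.57, 0.587, 1.23 and 1.04 in LRP1 eKO. LRP1 eKO replicate 1 was the highest and LRP1 eKO replicate 2 the lowest of all libraries. Its log2 fold change was 0.07 (95% interval -0.23 to 0.38, adjusted p = 0.68, limma; exact permutation p = 0.69). It was 0.20 without LRP1 eKO replicate 2 and -0.03 without LRP1 eKO replicate 1. With the pan-endothelial covariate it was -0.35 (adjusted p = 0.025, limma), in a fit that cannot divide genotype from endothelial content.

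Read against endothelial genes of the same library, Tie1 was on average lower in LRP1 eKO for most genes chosen, but not for Egfl7 and Cldn5. The ratio of Tie1 to Cdh5 was 0.556, 0.511, 0.444 and 0.622 in WT and 0.314, 0.265, 0.264 and 0.352 in LRP1 eKO. The ratio of Tie1 to Pecam1 was 0.464, 0.463, 0.435 and 0.514 in WT and 0.408, 0.319, 0.339 and 0.372 in LRP1 eKO. Of the ratios of Tie1 to each of the 10 pan-endothelial genes, 5 were lower in LRP1 eKO libraries without overlap (Cdh5, Pecam1, Emcn, Eng and Adgrl4) and 5 overlapped. Among the latter, the mean ratio was lower in LRP1 eKO for Esam (0.0659 to 0.0612), Robo4 (1.92 to 1.12) and Ptprb (3.49 to 2.33). It was higher for Egfl7 (0.111 to 0.121) and for Cldn5, a gene that was itself lower in LRP1 eKO. The ratio to Cldn5 was 0.929, 1.197, 0.871 and 0.658 in WT and 1.90, 1.03, 1.71 and 1.78 in LRP1 eKO. By comparison, the ratios of Flt1, Flt4, Kdr and Tek to Cdh5 overlapped between groups. These ratios were chosen after the values were seen and were not tested.

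**Figure D3:**
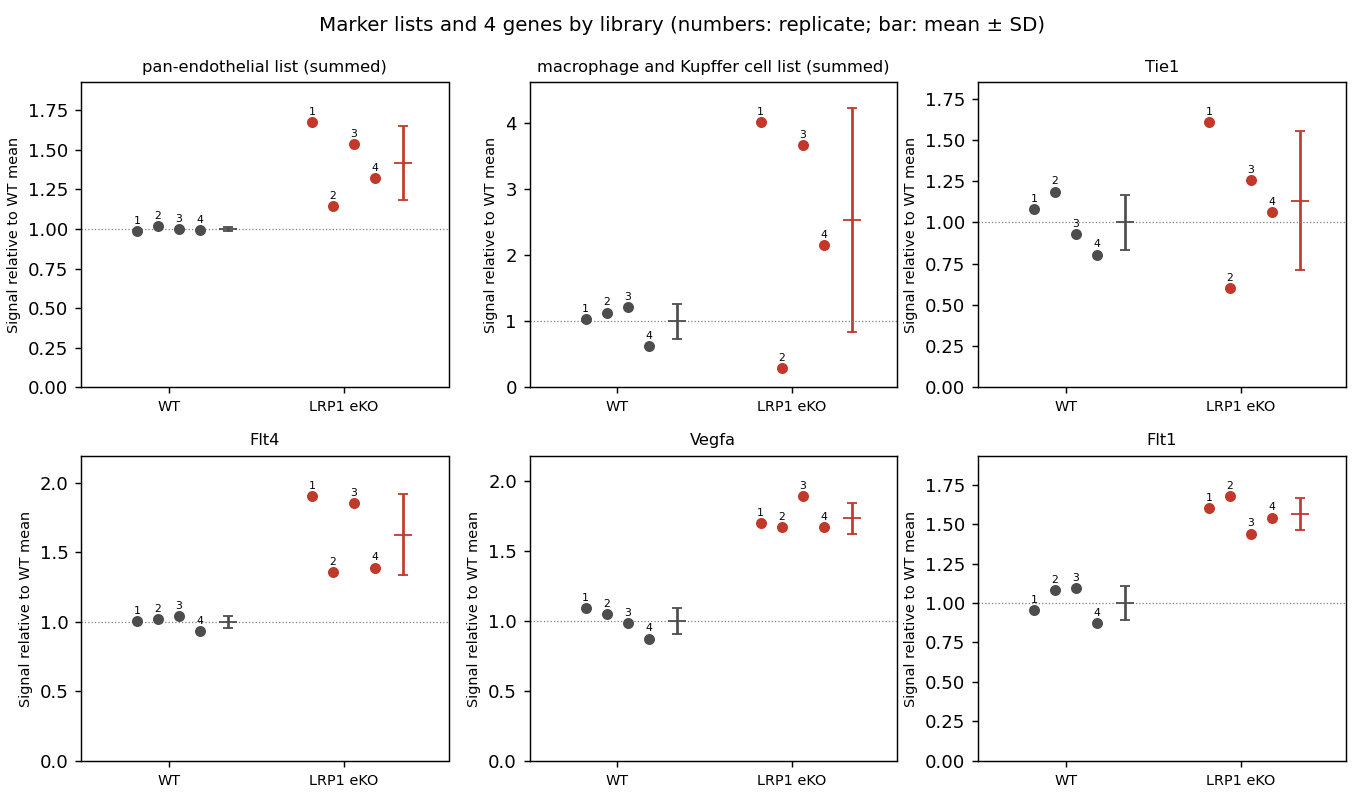
Signal of each library divided by the WT mean (y axis, linear from 0) for the summed pan-endothelial list, the summed macrophage and Kupffer cell list and single members, with replicate numbers and mean ± SD. LRP1 eKO replicate 2 is the lowest of its group for both lists, for Tie1 and for Flt4, but the highest for Flt1. It is also the lowest for Vegfa, by little (signal of 67.46 beside 67.64 in replicate 4).

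Variation within groups also separated the members. With group means taken off, the log2 signals of Flt1 and Kdr had a Pearson r of 0.85 over the 8 libraries. Tie1 had an r of 0.83 with Angpt2 and of 0.82 with Flt4, but of -0.05 with Flt1 and -0.42 with Kdr. The libraries share 1 normalization, and these values are a description. Among the 11391 genes, those most like Vegfa were Zfp36, Gab1 and Nod1 (r from 0.98 to 0.99), those most like Vegfb were Vps18, Cenpt and Dffa (r from 0.98 to 0.99), and those most like Vegfc were Poglut1, Chpf and Nr1h2 (r of 0.98 for each). For the receptors they were Gk5, Pcyt1a and Wdr47 (r from 0.98 to 0.99) beside Kdr, Mfsd6, Mthfd2l and Lmtk2 (r from 0.97 to 0.99) beside Flt1 and Vav3, Fzd1 and Aldh2 (r of 0.98 for each) beside Flt4. For Angpt2 they were Cntln, Axin2 and Gstcd (r from 0.96 to 0.97) and for Tie1 Gdf15, Smap2 and Pip5k1c (r from 0.97 to 0.98). With 8 libraries and so many genes, values of this size are a weak description.

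Other genes of the pathway were taken from 9 lists with 107 genes, of which 83 were tested. By limma 29 were higher (34.9%) and 17 lower (20.5%), beside the 19.0% and 22.2% of all genes tested. The number lower was 10, 10 and 11 without WT replicates 1, 2 and 3 and 9 without LRP1 eKO replicate 4. The median log2 fold change was 0.11 over these genes and -0.01 over all genes. Past 2-fold stood 0 of 83 by limma, and 0 also with an unadjusted p, beside 0.869% of all genes higher and 0.790% lower by limma.

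Among the other ligands, 1 of 4 tested genes was higher and 0 were lower by limma (0 also at an unadjusted p under 0.05). This was Pgf, placental growth factor, which like Vegfb binds Flt1. It measured 0.877, 0.955, 0.935 and 0.852 in WT against 1.74, 2.22, 1.71 and 1.61 in LRP1 eKO, without overlap (0.56, adjusted p = 4.1e-04, limma). The ratio of mean signals was 2.01. Pgf reached 1 in the 4 LRP1 eKO libraries only. It thus passed the filter through the group where it is high, and its call is not independent of the filter. Its highest value was again in LRP1 eKO replicate 2. Svep1, a matrix ligand of Tie1, had a log2 fold change of 0.16 that did not pass (adjusted p = 0.070, limma). Adamts3, a protease that processes VEGF-C and was fitted without the filter, went from 0.647 ± 0.0505 to 0.398 ± 0.0498 (adjusted p = 0.0041, limma).

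In the list of co-receptors and partners, 4 of 11 tested genes were higher and 1 was lower. Itga5, the fibronectin receptor subunit, measured 48.5, 52.4, 53.6 and 47.5 in WT against 107, 92.1, 105 and 92.7 in LRP1 eKO. It had the largest difference of the 83 genes (0.96, adjusted p = 4.8e-06, limma). Ephb4, a receptor of venous endothelium, was lower (-0.33, adjusted p = 0.0010, limma). The VEGF co-receptors Nrp1 (0.16, adjusted p = 0.31, limma) and Nrp2 (0.19, adjusted p = 0.13, limma) did not pass.

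Downstream of the VEGF receptors, 6 of 18 tested genes were higher and 3 were lower. The kinases Fyn (0.42, adjusted p = 2.0e-04, limma) and Ptk2, focal adhesion kinase (0.40, adjusted p = 3.5e-04, limma), had the smallest adjusted p. Nos3, the endothelial nitric oxide synthase, was below the filter at 0.163 in WT and 0.128 in LRP1 eKO. Of 7 tested genes of Tie receptor signaling, 2 were higher and 1 was lower, namely Ptpn11, the phosphatase SHP2 (0.33, adjusted p = 0.0038, limma), and Sos1 higher, and Foxo1, a transcription factor restrained by Tek signaling, lower (-0.21, adjusted p = 0.015, limma).

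Oxygen sensing genes, upstream of Vegfa, moved in both directions, with 3 of 8 higher and 2 lower. Epas1, the gene of HIF-2α, measured 5.43, 5.58, 5.50 and 4.24 in WT against 9.79, 6.55, 10.4 and 8.29 in LRP1 eKO (0.65, adjusted p = 0.0035, limma), and Hif1a was higher too. The prolyl hydroxylases that mark HIF for degradation were split. Egln1 was higher (0.24, adjusted p = 0.0036, limma), Egln3 was lower (-0.34, adjusted p = 4.1e-04, limma) and Egln2 did not pass (-0.17, adjusted p = 0.051, limma). Vhl, which recognizes the mark, was lower (-0.33, adjusted p = 0.0012, limma). Of 11 other hypoxia targets, 6 were higher and 4 lower. Pgk1, a glycolytic enzyme, was higher (0.59, adjusted p = 4.0e-06, limma), while Ddit4, an inhibitor of mTORC1, was lower (-0.54, adjusted p = 4.1e-04, limma).

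Genes that respond to VEGF or mark tip cells showed 4 higher and 4 lower of 12 tested. Spry4, a feedback inhibitor of receptor tyrosine kinases, went from 24.6 ± 2.91 to 15.1 ± 1.74 (-0.67, adjusted p = 6.3e-04, limma), and Egr2, an early response factor, was higher (0.33, adjusted p = 0.0017, limma). The tip cell genes Esm1, Dll4, Apln and Kcne3 were below the filter. Of 7 tested endothelial transcription factors, 3 were higher and 1 was lower. Klf4, induced by flow and also found outside endothelium, measured 8.46, 8.99, 9.12 and 9.03 in WT against 14.5, 19.9, 15.1 and 16.2 in LRP1 eKO (0.80, adjusted p = 9.8e-05, limma), and Ets1 was higher too (0.36, adjusted p = 5.6e-04, limma). Erg, Fli1, Sox7, Sox17, Sox18, Tal1 and Prox1 were below the filter. Among 5 tested inhibitors of angiogenesis, Thbs1 was lower (-0.48, adjusted p = 0.025, limma), Timp3 did not pass (0.29, adjusted p = 0.057, limma), and 0 were higher by limma (1 at an unadjusted p under 0.05, Timp3).

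**Figure D4:**
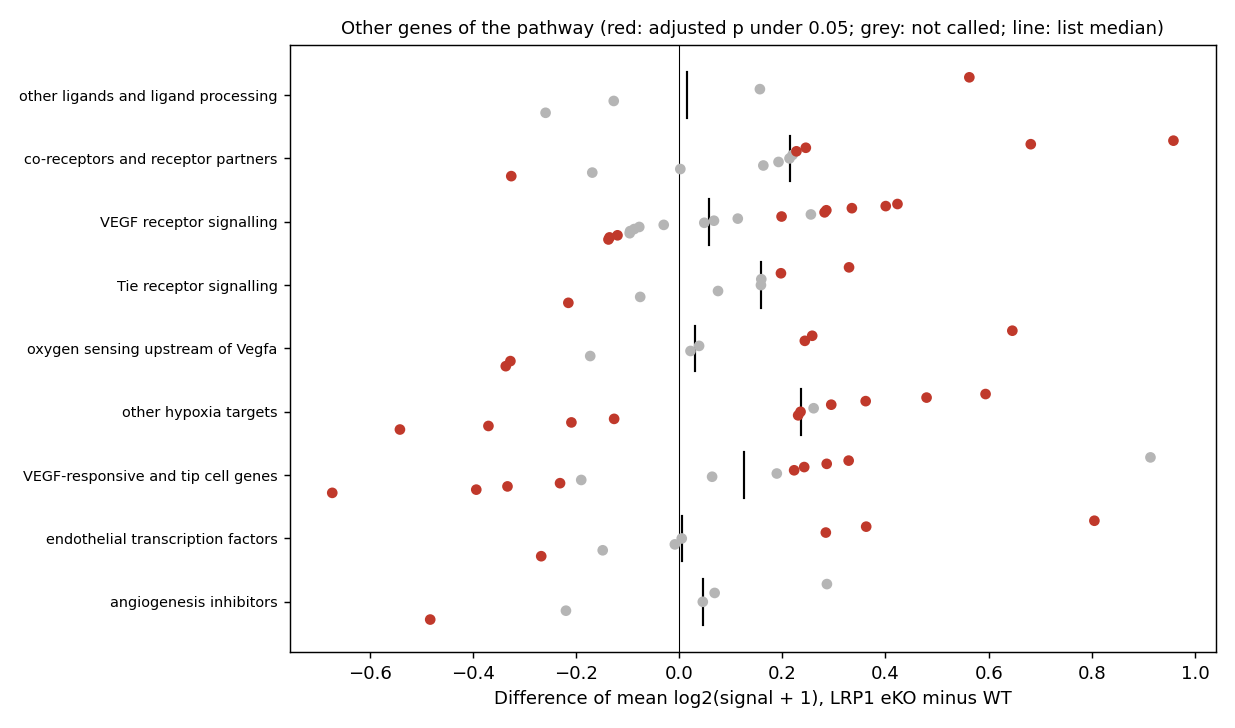
Difference of mean log2(signal + 1), LRP1 eKO minus WT (x axis), for the 83 tested pathway genes in 9 lists, with called genes in red and others in grey. Called genes lie on both sides of 0 in 7 of the lists, and Itga5 has the largest difference at 0.96.

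Markers of other cells moved with genotype as well, and their part in these results was not tested. The 2 covariates do not settle it. The summed pan-endothelial signal was apart by genotype (46.4 to 47.8 in WT, 53.7 to 78.6 in LRP1 eKO). Eng, part of this sum, was 19.7 in LRP1 eKO replicate 2 and at most 13.8 in WT. The covariate was not this sum but a mean of log2 signals without Cdh5 and Ptprb. With 8 libraries such a fit cannot divide genotype from cell content. By summed signal, hepatocyte genes ranged from 63.4 to 92.3 in WT and 21.3 to 28.8 in LRP1 eKO (4 of 4 tested lower, Fgb highest), and skeletal muscle genes from 34.1 to 57.0 in WT and 6.14 to 7.69 in LRP1 eKO (5 of 5 lower, Myl1 highest). Pericyte and smooth muscle genes ranged from 1476 to 1537 in WT and 1819.8 to 1903 in LRP1 eKO (5 of 7 higher, Acta2 highest), and stellate and fibroblast genes from 2015 to 2328 in WT and 1758 to 2219.6 in LRP1 eKO (3 of 7 lower, Col1a2 highest). Of the endothelial lists, 3 of 6 pan-endothelial genes were higher (Eng highest), while in the fit without the filter Robo4 was higher (0.37, adjusted p = 0.015, limma) and Cldn5, a tight junction protein, was lower without overlap (-0.32, adjusted p = 0.013, limma). Sinusoidal genes ranged from 37.9 to 41.4 in WT and 38.9 to 61.5 in LRP1 eKO (1 of 5 higher, Gata4 highest). Continuous and large vessel genes ranged from 335 to 481 in WT and 617 to 713 in LRP1 eKO (2 of 5 higher, Cav1 highest), and lymphatic genes from 295 to 321 in WT and 240.1 to 255 in LRP1 eKO (2 of 3 lower, Pdpn highest). These sums mainly follow their most abundant gene. Cav1 averaged 273 in WT and 454 in LRP1 eKO, beside 0.450 and 0.448 for Vwf, and Pdpn averaged 300 and 243. Of 9 macrophage genes 1 was higher (Lyz2 highest), and leukocyte genes ranged from 1.16 to 2.23 in WT and 1.598 to 5.87 in LRP1 eKO (1 of 1 higher, S100a8 highest, with Ncr1 and Ly6g at 0 throughout). Cholangiocyte genes ranged from 301 to 356 in WT and 233 to 696 in LRP1 eKO (1 of 3 lower, Spp1 highest) and erythroid genes from 24.7 to 35.2 in WT and 14.6 to 24.7 in LRP1 eKO (1 of 1 lower, Alas2 highest). Most of the cholangiocyte sum was Spp1 and Krt7, while Epcam averaged 0.0300 in WT and 0.0406 in LRP1 eKO. Some called genes passed the filter only through the group where they are high. These were Oit3 (sinusoidal) and Myh11 (smooth muscle) through LRP1 eKO, and Atp2a1 and Myog (skeletal muscle) through WT. The same rule called 19.0% of all genes tested higher and 22.2% lower. With the pan-endothelial or the macrophage covariate, Vegfa had log2 fold changes of 0.70 and 0.74 and Flt1 of 0.64 and 0.63, all called by limma.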

How the data were processed

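Groups and replicate numbers were read from the titles of the 4 WT and 4 LRP1 eKO libraries, which do not say whether each came from a separate animal; p-values then measure the spread between libraries only. The authors deposited quantile-normalized signal values of 22520 protein-coding genes. The submitters' processing notes name TopHat2, Cufflinks and mm10, whereas the methods of the study name STAR, featureCounts and edgeR, and which of them led to this table is not stated. Quantile normalization removes any global shift between libraries. With depth unknown, no counting error was computed.

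Genotype was the sole term of the fit of log2(signal + 1), by limma 3.58.1 (R 4.3.3) with a trend of variance on the mean, checked on simulated data. Members and gene lists were chosen with earlier results of these data known. The text names the 10 members, Lrp1, the 2 genes of each pathway list with the smallest adjusted p, the 3 genes most like each tested member and the most abundant marker of each list, and other genes named were chosen after their values were seen. Positions are from GENCODE M21. Plots used matplotlib 3.10.9 (Python 3.11.15). Alternatives were other pseudocounts and filters, array weights, trimmed-mean centring, limma with robust moderation or no trend, a replicate block, 2 covariates, other thresholds and leaving out libraries.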

Additional observations from a re-analysis of the deposited data

Results flagged for a closer look

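Dixon's test was applied to 46 groups of 4 libraries, over the members, Lrp1 and summed marker lists, and 4 groups held a library far from its neighbors; about 2.3 such groups arise by chance. Each value here is the distance to the nearest library divided by the span of its group. Vegfa was highest in LRP1 eKO replicate 3 (0.876), at 76.6 beside 67.5 to 68.6 in the other LRP1 eKO libraries. The summed continuous and large vessel endothelial genes were lowest in WT replicate 4 (0.877) and highest in LRP1 eKO replicate 2 (0.835). Most of this sum is Cav1, at 192 and 534 in these libraries, so it mainly describes that gene. The summed skeletal muscle genes were highest in WT replicate 4 (0.860).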

How the results depend on the processing

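Vegfa and Flt1 kept their direction in the 21 alternatives run for each and their call in the 20 that had a test. With 1 library left out, 3 or 4 members were higher and 0 or 1 lower (Vegfc, without WT replicate 3), and 21 to 31 pathway genes were higher and 9 to 21 lower. Leaving out 1 library gave log2 fold changes of -0.089 to 0.090 for Angpt2, -0.029 to 0.20 for Tie1 and 0.051 to 0.17 for Kdr. Without both WT replicate 4 and LRP1 eKO replicate 2, Kdr was at -0.011 and 22 pathway genes were lower. With the pan-endothelial covariate, 1 member was lower (Tie1, -0.35), Angpt2 was at -0.26, and 18 pathway genes were higher and 11 lower. With the macrophage covariate Tie1 was at -0.13 and Angpt2 at -0.099. At an adjusted p under 0.01, 20 pathway genes were higher and 7 lower, and at 1.5-fold 2 members passed both thresholds, both higher. The shares of all genes at these thresholds were not computed. The ratio of arithmetic means gave log2 values of 0.70 for Flt4, 0.76 for Tek and -0.46 for Angpt1, on a scale without the pseudocount. The cause of the other shifts was not tested. Deviations from group means of same-numbered libraries had correlations of -0.09, -0.13, 0.18 and 0.04. Pairs of WT and LRP1 eKO libraries with different numbers ranged from -0.26 to 0.21. These values cannot tell whether same-numbered libraries shared a litter or a preparation. With the replicate block 10 pathway genes were lower and Tek was called (0.22, adjusted p = 0.039, limma), while the other 9 members kept their side of the threshold. Low signals limit what can be said of Angpt1 and Tek.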
